A study of Mus musculus with 6 samples.

Results

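Open chromatin was mapped in the S1 segment of the mouse kidney proximal tubule, the stretch that begins at the glomerulus, in the 3 libraries of sham-operated animals of this series (3 of its 6 libraries). The members were chosen by taking the peak lists of Sham 1, Sham 2 and Sham 3 and keeping the regions that overlapped in all 3 lists: 66371 of the 108841 regions formed when the lists were merged (61.0%). The mice were wild-type (WT) C57BL/6 males of 7 weeks from a commercial breeder, kept on normal chow. All 3 libraries came from the sham operation, which leaves both kidneys in place, and all carry the label 24h. Each library was made from 3 hand-dissected pieces of tubule 200 to 300 µm long, and since the labels do not tie the libraries to separate mice, the spread between them may be technical.

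Open chromatin was read by ATAC-seq: the Tn5 transposase inserts sequencing adapters where DNA is not wrapped tightly, and places with many insertions are called as peaks. The S1 segment reclaims most of the filtered glucose, amino acids, phosphate, bicarbonate and protein, and its cells carry a dense brush border, megalin and cubilin for protein uptake, and enzymes for gluconeogenesis. Its gene programme is known to depend on the liver and kidney factors of the HNF1 and HNF4 families, which bind both promoters (the DNA around a transcription start) and distal elements such as enhancers. CTCF, a zinc finger protein that holds chromatin loops in place, marks another large class of distal sites in most tissues.

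The DNA under some of the strongest regions is shown first, because the results below return to these starts and elements. The 160 bases before the annotated start of 5 genes are printed 5′ to 3′ on the strand of the gene, from RefSeq (GRCm38.p6): the S1 phosphate transporter Slc34a1 (chr13:55399488-55399647, plus strand), the transcription factor Hnf4a at the downstream of its RefSeq starts (chr2:163546995-163547154, plus strand), the neutral amino acid transporter Slc6a19 at an internal start (chr13:73692637-73692796, minus strand), the bicarbonate transporter Slc4a4 at its internal start (chr5:89027806-89027965, plus strand) and angiotensin-converting enzyme Ace at its internal start (chr11:105975029-105975188, plus strand). Capitals in the Hnf4a sequence mark a match to GTTAATNNT, a short form of the HNF1 consensus, read on the opposite strand. The same string was found in 1.46% of the 32851 RefSeq promoters over the same 160 bases, on either strand.
Slc34a1: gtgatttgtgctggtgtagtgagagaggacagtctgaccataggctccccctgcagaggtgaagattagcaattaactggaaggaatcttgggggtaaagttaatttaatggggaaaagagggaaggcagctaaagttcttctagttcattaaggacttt
Hnf4a: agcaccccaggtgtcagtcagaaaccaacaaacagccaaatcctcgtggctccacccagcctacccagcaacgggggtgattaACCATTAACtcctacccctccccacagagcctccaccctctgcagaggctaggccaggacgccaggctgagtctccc
Slc6a19: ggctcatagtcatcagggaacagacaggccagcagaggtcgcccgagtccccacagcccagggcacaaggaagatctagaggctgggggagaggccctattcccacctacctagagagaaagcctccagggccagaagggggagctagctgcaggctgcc
Slc4a4: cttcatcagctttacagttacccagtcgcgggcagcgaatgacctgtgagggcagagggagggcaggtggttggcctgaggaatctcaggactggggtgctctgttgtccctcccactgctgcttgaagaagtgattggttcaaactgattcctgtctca
Ace: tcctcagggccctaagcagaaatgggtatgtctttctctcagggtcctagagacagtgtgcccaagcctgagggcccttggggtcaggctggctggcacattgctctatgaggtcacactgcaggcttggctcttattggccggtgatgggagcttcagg

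Among the promoters of the S1 genes listed below, 4 held the longer HNF1 string GTTAATNAT or the HNF4 string CAAAGTCCA within 100 bp of the summit, the base where the peak caller placed the top of the peak. The 30 bases around each match are printed on the strand of the gene with the match in capitals: Folr1, the folate receptor of the brush border (chr7:101870786-101870815 and chr7:101870870-101870899, minus strand), Prodh2, which degrades hydroxyproline (chr7:30493521-30493550, plus strand), the bile acid transporter Slc10a2 (chr8:5105489-5105518, minus strand), and Pdzk1, the scaffold that anchors brush border transporters (chr3:96830069-96830098, plus strand). Folr1, Prodh2 and Slc10a2 held the HNF1 string and Pdzk1 held the HNF4 string.
Folr1, nearer the start: cataaaggccaGTTAATAATcagccccggg
Folr1, farther upstream: tcactggaaagGTTAATTATtcagaagctg
Prodh2: ctaaccattaATTATTAACcctccaccacc
Slc10a2: tcctggcattaATTATTAACgtggctattt
Pdzk1: aatctttgtcCAAAGTCCAgtgagttccaa

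For distal elements, the 201 bases centred on the summit are shown for the strongest region that held each of 3 strings (HNF1, HNF4 and CTCF) and for the strongest region of all, taken among regions more than 2.5 kb from every start in GENCODE and RefSeq, outside exons, on the plus strand with the string in capitals. The HNF1 example lay at chr4:61808989-61809189 (nearest coding gene Mup5), the HNF4 example at chr1:77110468-77110668 (nearest coding gene Epha4) and the CTCF example at chr9:63124173-63124373 (nearest coding gene Skor1). The strongest region of all lay in an intron of Arhgap42 at chr9:9083572-9083772 and held none of the strings searched. Bases masked as repeats made up 85.6% of the HNF1 window, 72.6% of the Arhgap42 window, 13.4% of the HNF4 window and none of the CTCF window.
Distal with HNF1: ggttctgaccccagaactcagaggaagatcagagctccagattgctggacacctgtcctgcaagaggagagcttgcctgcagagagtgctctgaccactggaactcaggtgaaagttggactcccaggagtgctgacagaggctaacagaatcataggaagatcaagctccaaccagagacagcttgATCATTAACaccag
Distal with HNF4: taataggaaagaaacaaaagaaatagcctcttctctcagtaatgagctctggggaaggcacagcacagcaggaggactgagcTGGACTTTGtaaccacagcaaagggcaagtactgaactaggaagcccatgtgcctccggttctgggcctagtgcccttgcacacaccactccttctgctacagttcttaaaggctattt
Distal with CTCF: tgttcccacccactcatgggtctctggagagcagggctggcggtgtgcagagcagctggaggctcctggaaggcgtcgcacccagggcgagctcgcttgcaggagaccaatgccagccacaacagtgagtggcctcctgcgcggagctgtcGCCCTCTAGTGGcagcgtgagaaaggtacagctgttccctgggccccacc
Distal in Arhgap42: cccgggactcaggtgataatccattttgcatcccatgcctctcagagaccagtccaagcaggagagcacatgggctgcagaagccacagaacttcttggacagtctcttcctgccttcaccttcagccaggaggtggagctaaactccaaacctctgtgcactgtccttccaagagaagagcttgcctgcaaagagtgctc

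The lists held 97834 intervals in Sham 1, 77355 in Sham 2 and 96970 in Sham 3, and covered 44.9, 32.6 and 45.5 Mb. Because a peak list carries no read counts, sequencing depth is unknown here. Each interval carries the authors' −log10 q, and its median was 17.4, 12.1 and 18.1 in the 3 lists, so Sham 2 was the shortest list with the weakest peaks. To compare lists, each interval was ranked within its own list by the −log10 q of its best summit and given a percentile, with 100 for the strongest and 0 for the weakest. Percentiles of the 66371 shared regions ran together across libraries (Spearman correlation 0.897 between Sham 1 and Sham 2, 0.930 between Sham 1 and Sham 3 and 0.894 between Sham 2 and Sham 3, over regions of the same genome, which are not replicates). The median SD of a region's percentile over the 3 lists was 6.64 percentile points.

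Regions found in fewer lists were short and weak. The 66371 shared regions had a median width of 580 bp and a median percentile of 61.7, the 19280 regions in 2 lists had 265 bp and 23.3, and the 23190 regions in 1 list had 183 bp and 11.7. Part of this follows from the method. A region's width spans all its joined intervals, and an interval near the limit of 1 list is easily missed in another. Single intervals had median widths of 375, 342 and 374 bp in Sham 1, 2 and 3. Shared regions made up 92.2% of the merged regions that Sham 2 touched, but 70.1% of those of Sham 1 and 70.4% of those of Sham 3. Without Sham 2, 82713 regions were shared by the other libraries.

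Shared regions lay near gene starts far more often than the genome does. A summit within 1 kb of an annotated start (GENCODE M21, basic set) counted as a promoter region, and 16049 shared regions (24.2%) met this, where 4.25% of genome positions do, a ratio of 5.69. Introns held 29402 regions (44.3%, against 39.2% of the genome), exons 3018 (4.55% against 2.82%) and the space between genes 17902 (27.0% against 53.7%). Taken alone, the lists had promoter shares of 20.6% in Sham 1, 24.4% in Sham 2 and 20.8% in Sham 3, or 21.9 ± 2.13% (SD, n = 3). Distal regions, with a summit more than 2.5 kb from every annotated start, numbered 45489 (68.5%), at a median distance of 27798 bp from the nearest protein-coding start, and 705 regions lay over 500 kb from any.

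Strength and position went together. When the shared regions were ordered by mean percentile and split into 10 equal groups, 72.0% of the strongest group were promoters, 43.1% of the next and 11.6% of the weakest, while introns went from 14.7% to 55.6%. Promoter regions had a median percentile of 83.1 and a median width of 866 bp, against 55.2 and 515 bp in introns and 57.7 and 523 bp between genes. Of the 1000 strongest shared regions 914 were promoters (91.4%), and this share was 58.1% when intervals were ranked by the authors' fold enrichment over local background instead. With that ranking the median percentile was 76.4 for promoter regions and 58.4 for distal regions, against 83.1 and 56.3 with −log10 q. Among the autosomes, the density of shared regions went from 21.5 per Mb on chromosome 12 to 38.2 on chromosome 11, against 7.96 on the X chromosome. The mice were male, with a single X chromosome, and the part of this in the X value was not tested.

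**Figure D1:**
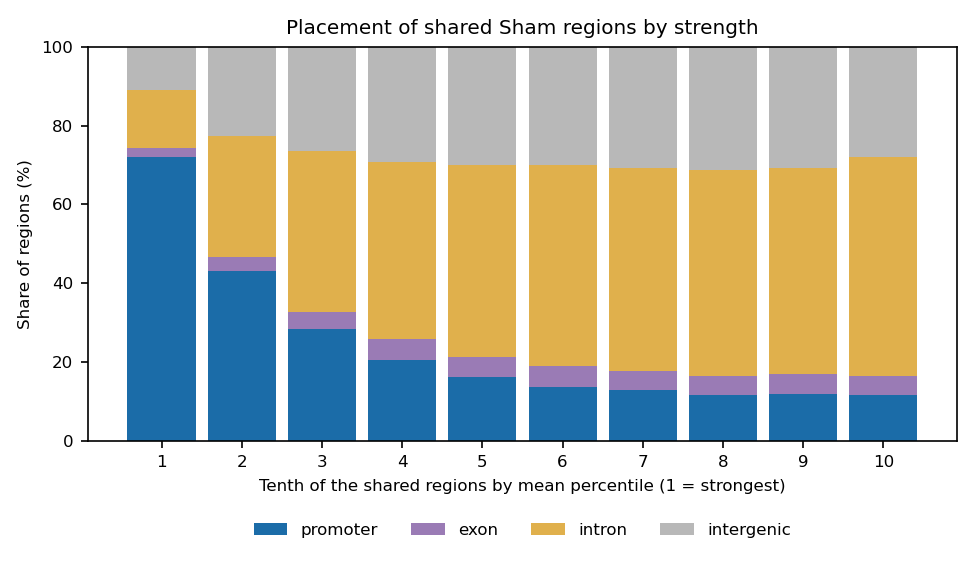
Share of promoter, exon, intron and intergenic regions (y axis, %) in each of 10 equal groups of the 66371 regions shared by the 3 Sham lists, ordered by mean percentile (x axis, 1 is strongest). Promoters make up 72.0% of the strongest group and 11.6% of the weakest.

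None of the 15 strongest promoters of coding genes in S1 tubules belonged to a gene of the S1 lists described below. Those lists hold 57 of 21803 coding genes with a unique symbol, so finding none among 15 says little about S1 genes. The Tial1 promoter (chr7:128460985-128462170), of an RNA-binding protein of stress granules, ranked 1 of 97834 in Sham 1, 11 in Sham 2 and 1 in Sham 3, with −log10 q values of 402, 186 and 373. The promoter shared by Chml, a Rab escort protein, and the opsin Opn3 ranked 10, 3 and 5, and that of the heat shock protein family member Hspa13 ranked 3, 7 and 7. Peak1, a pseudokinase of the cytoskeleton, ranked 7, 26 and 4. All 3 libraries thus placed these 4 regions among their 26 strongest intervals. Others of the 15 strongest were at Dut (dUTP pyrophosphatase), Rps6ka5 (a histone kinase), Asah1 (acid ceramidase), Rab30 (a Golgi GTPase), Kbtbd3 with Aasdhppt, Nkiras1 with the ribosomal protein gene Rpl15, the formin Daam1, the ribonucleotide reductase subunit Rrm2b, Acad8 (an acyl-CoA dehydrogenase) with Thyn1, and Adss (adenylosuccinate synthase). Several sat between divergent genes: Kbtbd3 and Aasdhppt start 35 and 331 bp from the summit on opposite strands, and Nkiras1 and Rpl15 start 19 and 50 bp from theirs. Ranked by fold enrichment, the 15 strongest regions within 1 kb of any annotated start, coding or not, had percentiles from 96.2 to 99.8.

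A gene counted as open when a shared region overlapped the 1 kb on either side of a coding start, and as closed when no list had an interval there. By this measure 13112 of 21851 protein-coding genes were open (60.0%), 1030 had an interval in 1 or 2 lists and 7709 were closed. Openness went with base composition: 9713 of 10752 genes with a CpG-rich start were open (90.3%), against 3399 of 11099 genes without one (30.6%). A start was called CpG-rich when the 500 bp on either side had at least 50% GC and an observed over expected CpG ratio of at least 0.6. The median percentile of open starts was 90.9 for CpG-rich and 80.5 for CpG-poor genes, and 89.0 for all. Gene families differed widely, and not only along this axis. Starts were open for 77 of 80 ribosomal protein genes, 35 of 36 NADH dehydrogenase subunits and 35 of 39 proteasome subunits, against 10 of 1092 olfactory receptors, 1 of 327 vomeronasal receptors and 6 of 49 keratins. Of 391 Zfp zinc finger genes 326 were open (83.4%), though only 206 of the 391 had a CpG-rich start. Olfactory receptors, none with a CpG-rich start, were open in 0.916% of cases, under the 30.6% of CpG-poor genes.

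The 4 genes that mark the segment were open in every library. Slc5a2, the apical glucose transporter SGLT2, had percentiles of 94.7, 90.3 and 87.2 in Sham 1, 2 and 3 (90.7 ± 3.77, SD, n = 3) at chr7:128265274-128265915. Slc34a1, the main phosphate transporter of the brush border, had 93.0, 91.9 and 92.4 (92.5 ± 0.550). Lrp2, which encodes the endocytic receptor megalin, had 96.5, 96.5 and 97.3 (96.8 ± 0.485). Hnf4a had 88.4, 88.9 and 88.7 (88.7 ± 0.257). The libraries lay close together at Slc34a1, Lrp2 and Hnf4a and farther apart at Slc5a2, which was highest in Sham 1.

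Across the 6 S1 lists, 56 of 57 genes were open, where 60.0% of all protein-coding genes were. These and the other gene lists were chosen with earlier results of these data known, so their open shares describe the listed genes only. All 39 S1 genes with a CpG-poor start were open, where 30.6% of all CpG-poor genes were. Where a gene had several open coding starts in the basic set, the strongest was counted. The internal start of Slc6a19 lies outside that set and was not counted here. With a required overlap of 50%, 54 S1 genes were open, and Enpep and Ugt1a2 were not. The median percentile of the open S1 starts was 85.1, under the 89.0 of all open genes, and Dpp4 stood at 98.8. Ranked by fold enrichment the median fell to 58.0, against 83.0 for all open genes, and the 4 markers moved to 64.8 (Slc5a2), 53.4 (Slc34a1), 69.6 (Lrp2) and 52.6 (Hnf4a). By that ranking the list medians were 75.9 for brush border peptidases, 67.7 for protein and vitamin uptake, 58.5 for metabolic enzymes, 57.4 for phosphate, sodium, bicarbonate and water, 52.4 for amino acid transporters and 44.3 for glucose and organic solute transporters. The median of S1 starts was thus under that of all open starts by either measure, and how far under depended on the measure. By −log10 q, the S1 median lay between the medians of open CpG-poor genes (80.5) and open CpG-rich genes (90.9). Of the 56 open S1 genes, 39 were CpG-poor. Fold ranking was not split by this class.

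**Figure D2:**
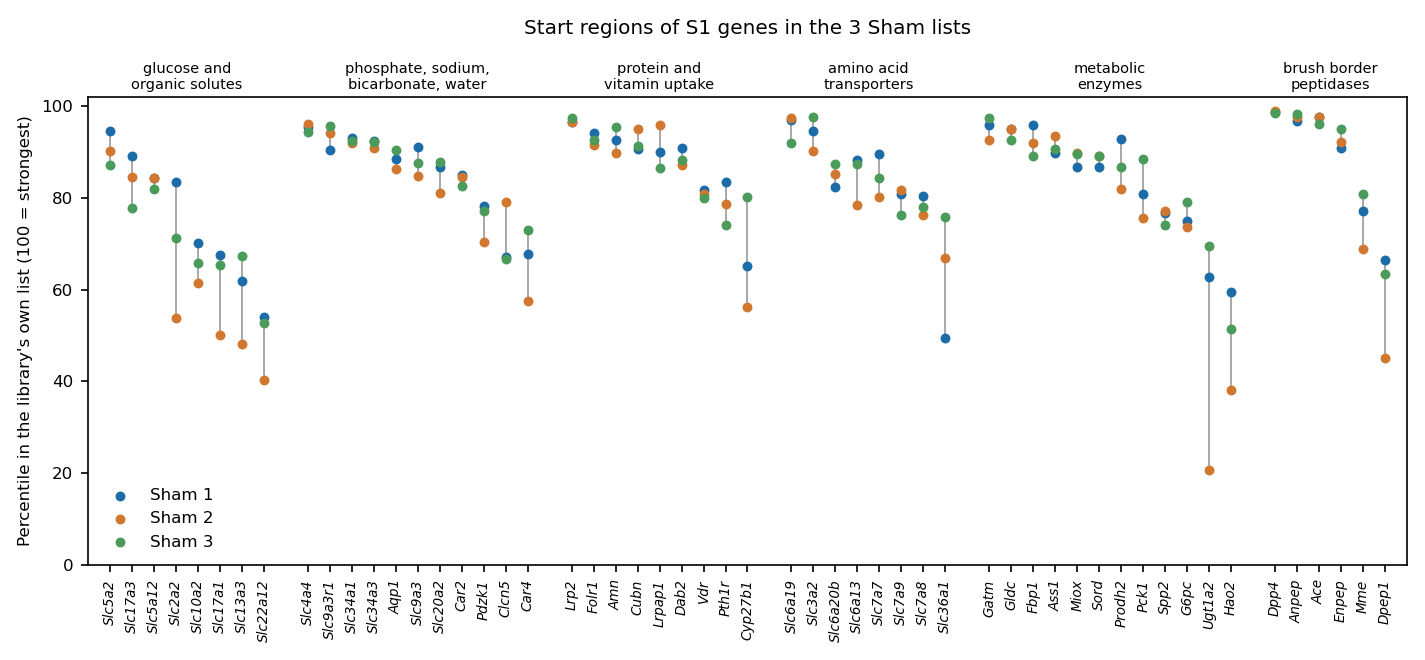
Percentile of the start region (y axis, 100 is strongest) of 54 of the open S1 genes (x axis) in Sham 1, Sham 2 and Sham 3, grouped by role, with a line from the lowest to the highest library. Most genes lie above 60 in every library, and the widest spread is at Ugt1a2, from 20.6 to 69.6.

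Glucose and organic solute transporters had the lowest median of the 6 roles. All 8 were open at a median percentile of 67.7, from Slc5a2 at 90.7 down to Slc22a12, the urate transporter URAT1, at 54.1, 40.3 and 52.8 (49.1 ± 7.59). Slc2a2, the basolateral glucose exit GLUT2, had 83.4, 53.8 and 71.3, lowest in Sham 2. The monocarboxylate transporter Slc5a12 had 84.3, 84.3 and 81.9.

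The 12 genes of phosphate, sodium, bicarbonate and water handling were all open at a median of 88.2. The carbonic anhydrase gene Car4 was lowest at 67.7, 57.6 and 73.0 (66.1 ± 7.83). Slc4a4, the basolateral bicarbonate exit, had 95.6, 96.2 and 94.3. Slc34a3, the other brush border phosphate transporter, had 92.4, 90.8 and 92.2, close to Slc34a1. Aqp1, the water channel, had 88.5, 86.4 and 90.4, and Slc9a3, the apical sodium-proton exchanger, 91.2, 84.9 and 87.6.

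Genes of protein and vitamin uptake had a median of 90.9 with 9 of 9 open. The apical receptor complex was even across its subunits: Lrp2 had 96.8, Amn (amnionless) 92.6 and Cubn (cubilin) 92.4 as means of the 3 lists. Folr1 followed at 92.8 ± 1.32 and the receptor chaperone Lrpap1 at 90.9 ± 4.74. The lowest was Cyp27b1, which makes active vitamin D, at 65.2, 56.3 and 80.2 (67.3 ± 12.1).

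Amino acid transporters were open in 8 of 8 cases at a median of 84.7. Slc6a19, which takes up neutral amino acids, was highest at 97.0, 97.4 and 92.0 (95.5 ± 3.05) at its basic start, with its internal start described below. Slc36a1, a lysosomal proton-coupled transporter, was lowest at 49.5, 66.9 and 75.9 (64.1 ± 13.4). Between these lay the heavy chain Slc3a2 at 94.2 and the light chains Slc7a7 at 84.7, Slc7a9 at 79.6 and Slc7a8 at 78.2.

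Brush border peptidases were open in 7 of 7 cases, at a median of 92.7 with Ace at its stronger, internal start and 75.6 with Ace at its upstream start, an alternative added after the data were seen. Dpp4, dipeptidyl peptidase, had 98.8, 99.0 and 98.5 (98.8 ± 0.267), Anpep, aminopeptidase N, 96.8, 97.7 and 98.2, and Ace 97.6, 97.6 and 96.1. Dpep1, a membrane dipeptidase, had 66.4, 45.0 and 63.4, lowest in Sham 2, and Mme, neprilysin, 77.0, 68.8 and 80.9.

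Among the metabolic enzymes 12 of 13 starts were open at a median of 87.8. Gatm, the first enzyme of creatine synthesis, was highest at 95.8, 92.7 and 97.4 (95.3 ± 2.39), followed by Gldc of glycine cleavage at 94.2 ± 1.31 and the gluconeogenic enzyme Fbp1 at 92.3 ± 3.43. Pck1, the other classical gluconeogenic enzyme, had 80.9, 75.6 and 88.4, and G6pc, which releases free glucose, 74.9, 73.7 and 79.2. The lowest open gene was Hao2, a hydroxy acid oxidase, at 59.6, 38.2 and 51.5 (49.7 ± 10.8), near Ugt1a2 at 62.7, 20.6 and 69.6 (51.0 ± 26.5).

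The only S1 gene with no interval at a start was Slc37a4, which carries glucose-6-phosphate into the endoplasmic reticulum and works with G6pc. None of its 4 coding starts had an interval in any list, and the nearest shared region was 18799 bp away. Its start is CpG-rich, a class in which 90.3% of genes were open. The gap around it, chr9:44292807-44417272 (124 kb), held no interval in any of the 3 lists and also spans CpG-rich starts of 8 other genes, among them the ribosomal protein gene Rps25, the histone gene H2afx, the chaperone Hyou1 and the vesicle transport gene Vps11. The median gap between neighbouring merged regions was 6.17 kb and the 95th percentile 82.9 kb. Whether Slc37a4 was closed in these cells or its locus was missing from the lists cannot be told apart from these files. Over the genome, 31 such gaps with at least 3 CpG-rich closed genes held 151 of the 671 CpG-rich closed genes. They included the gap of P4hb, Arhgdia and Alyref on chromosome 11, those of Eef2, Atf4 and Psmc5, and clusters of histone genes and of duplicated genes.

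Where a gene had several coding starts, the libraries mostly favoured the same start. Of the S1 and transcription factor genes, 12 had starts more than 2.5 kb apart, and in 7 of them every start group had a shared region. At Slc4a4 the internal start, 141 kb downstream and known for the kidney form of the transporter, had 95.6, 96.2 and 94.3, against 72.3, 67.5 and 62.3 at the upstream start. At Anpep the downstream start, 5.86 kb from the other and known as the epithelial promoter, had 96.8, 97.7 and 98.2, against 49.7, 41.0 and 33.9 at the upstream start, which is known from myeloid cells. Dab2, the endocytic adaptor of megalin, had 90.8, 87.1 and 88.3 at the downstream start and 66.1, 70.2 and 71.7 at a start 86.8 kb upstream. In each of these 3 genes the lowest library at the stronger start was above the highest library at the weaker start.

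Ace also had its stronger region at the downstream start. Its upstream start, which gives the somatic enzyme of the brush border, had 75.2, 44.2 and 68.5, and the internal start 7.26 kb downstream, known for the testis form, had 97.6, 97.6 and 96.1 (chr11:105974469-105976060, 1592 bp wide). The internal region overlapped the 160 bases printed above for Ace. Hnf4a had a shared region at the downstream RefSeq start, the promoter known from liver and kidney, at 88.7. At the start 40.3 kb upstream, known from gut and pancreas, the nearest interval within 1 kb was in Sham 1 only, at a percentile of 4.55. Slc7a7 was open at its downstream start (84.7) with no interval at the upstream one, while Pth1r, the parathyroid hormone receptor, and Hnf4g were open at the upstream start (78.7 and 92.8) with no interval at the downstream one. Both starts of Nr1h4, the bile acid receptor FXR, were open at 84.3 and 85.8, and those of Slc3a2 at 92.8 and 94.2.

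**Figure D3:**
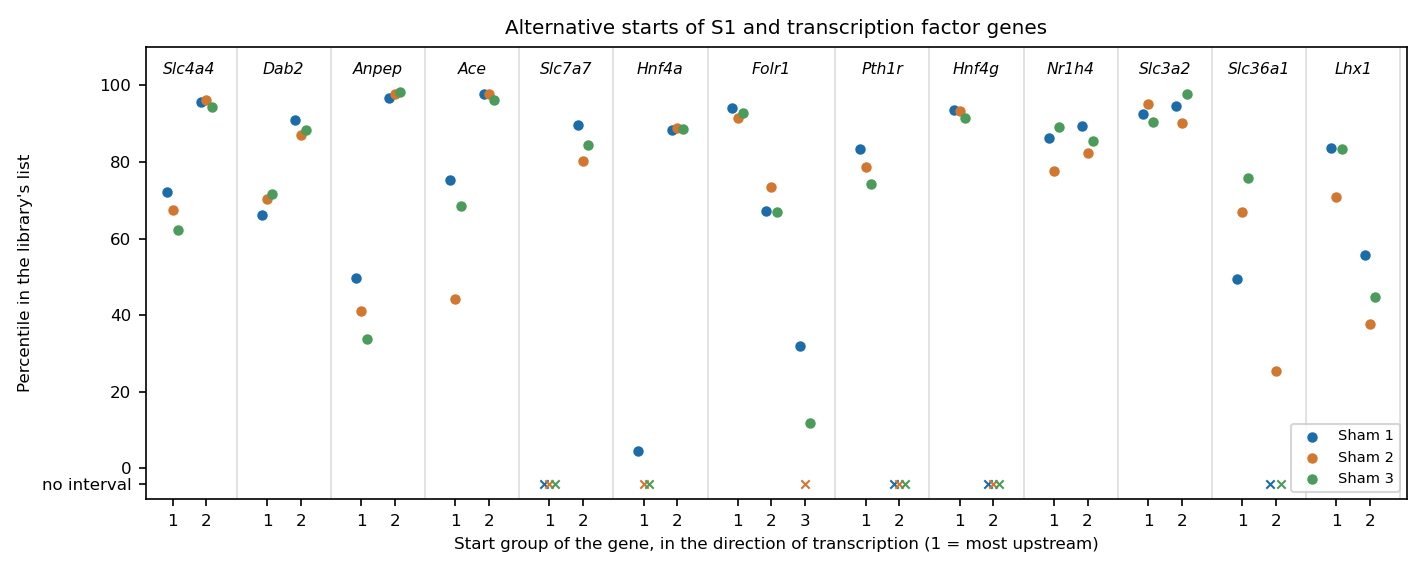
Percentile (y axis) of the region within 1 kb of each start group (x axis, 1 is the most upstream) in each Sham library, for the 12 genes with starts more than 2.5 kb apart and for Hnf4a with its RefSeq starts. Crosses mark a library with no interval. Slc4a4, Dab2, Anpep, Ace, Slc7a7 and Hnf4a are higher at the downstream start in every library.

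All 9 proximal tubule transcription factors were open, 5 of them CpG-poor, where 60.0% of all coding genes and 30.6% of CpG-poor ones were. Their median percentile was 85.8 by −log10 q and 45.3 by fold enrichment. Hnf4g was highest at 93.5, 93.2 and 91.6 (92.8 ± 1.05), with Hnf4a at 88.7, Ppara, the regulator of fatty acid oxidation, at 87.4 and the developmental factor Pax8 at 85.9. Maf had a start at 74.9 but 38 distal regions nearer to it than to any other coding gene.

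Genes of later proximal segments were open less completely than S1 genes. In the S2 and S3 list 10 of 14 genes were open (71.4%, against 60.0% of all coding genes). Among its CpG-poor genes 7 of 11 were open (63.6%, against 30.6% of all CpG-poor genes). The open genes had a median of 75.3, from Aadat, a kynurenine aminotransferase, at 93.5 ± 1.47 down to the lactate transporter Slc5a8 at 24.8, 15.5 and 38.1 (26.1 ± 11.3). Slc5a1, the S3 glucose transporter SGLT1, had an interval in Sham 1 only, at 30.0. No interval within 1 kb of a start was found for the organic anion transporters Slc22a8 and Slc22a13 or for the S3 amino acid transporter Slc7a13, but shared regions lay 1523, 1254 and 1172 bp from their starts at percentiles of 81.2, 84.5 and 84.3. With a window of 2.5 kb these 3 genes counted as open.

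Markers of other cells were checked to describe what else the dissected pieces may hold. Open shares in these lists are to be read against the 60.0% of all coding genes and the 30.6% of CpG-poor genes. In the list of the loop of Henle and distal tubule 5 of 12 genes were open: Ptger3 at 73.8, Calb1 at 70.4, Umod at 70.2, Slc12a1 at 62.5 and Cldn10 at 26.1, while Slc12a3, which defines the distal convoluted tubule, and Pvalb had no interval. A shared region lay 1589 bp from the Slc12a3 start, so it counted as open with a window of 2.5 kb. In the collecting duct list 6 of 12 were open, namely Scnn1g at 93.9, Fxyd4 at 90.04, Aqp3 at 84.2, Slc26a4 at 72.5, Hsd11b2 at 65.8 and Gata3 at 52.7, and Aqp2, Atp6v1g3, Avpr2, Foxi1, Scnn1b and Slc4a1 had no interval. Podocyte genes were open in 6 of 8 cases, at a median of 60.0, and 1 of the 2 CpG-poor ones was open. The highest of the open podocyte genes stood at 90.4, and the slit diaphragm gene Nphs1 was lowest at 46.7, 15.5 and 30.0 (30.7 ± 15.6). In the stroma list 4 of 8 were open (Pdgfra 86.9, Tagln 77.7, Col1a1 73.4 and Myh11 24.9). Of the CpG-poor genes, 2 of 9 were open in the loop list, 3 of 9 in the collecting duct list, 2 of 7 in the endothelial list and 3 of 7 in the stroma list (22.2%, 33.3%, 28.6% and 42.9%), near the 30.6% of all CpG-poor genes given their small numbers. Ranked by fold enrichment, the open genes had medians of 75.7 (loop), 72.5 (collecting duct), 58.8 (podocyte) and 78.5 (stroma), against 58.0 for S1 genes and 83.0 for all open genes. The libraries had intervals at 7, 6 and 8 of the 8 podocyte genes, at 4, 4 and 4 of the 8 stromal genes and at 8, 6 and 8 of the 10 endothelial genes.

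Endothelial genes were present but weak. The 5 open ones were Egfl7 at 41.6, Tie1 at 29.7, Flt1 at 23.95, Kdr at 19.3 and Cdh5 at 18.4, at a median of 23.95 (36.2 by fold enrichment), and the other 5 had an interval in 1 or 2 lists. Tie1 had 52.1, 6.80 and 30.1, so Sham 2 was the lowest library and Sham 1 the highest. With a −log10 q of at least 5, all of these except Egfl7 dropped out of the shared set. None of the 10 immune genes was open: 9 had no interval in any list and Cd74 had an interval in Sham 3 only, at 8.37. In such pieces of tissue, fewer cells with an open site and less opening per cell cannot be told apart, and the part of endothelial or podocyte cells in the distal regions below was not tested.

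**Figure D4:**
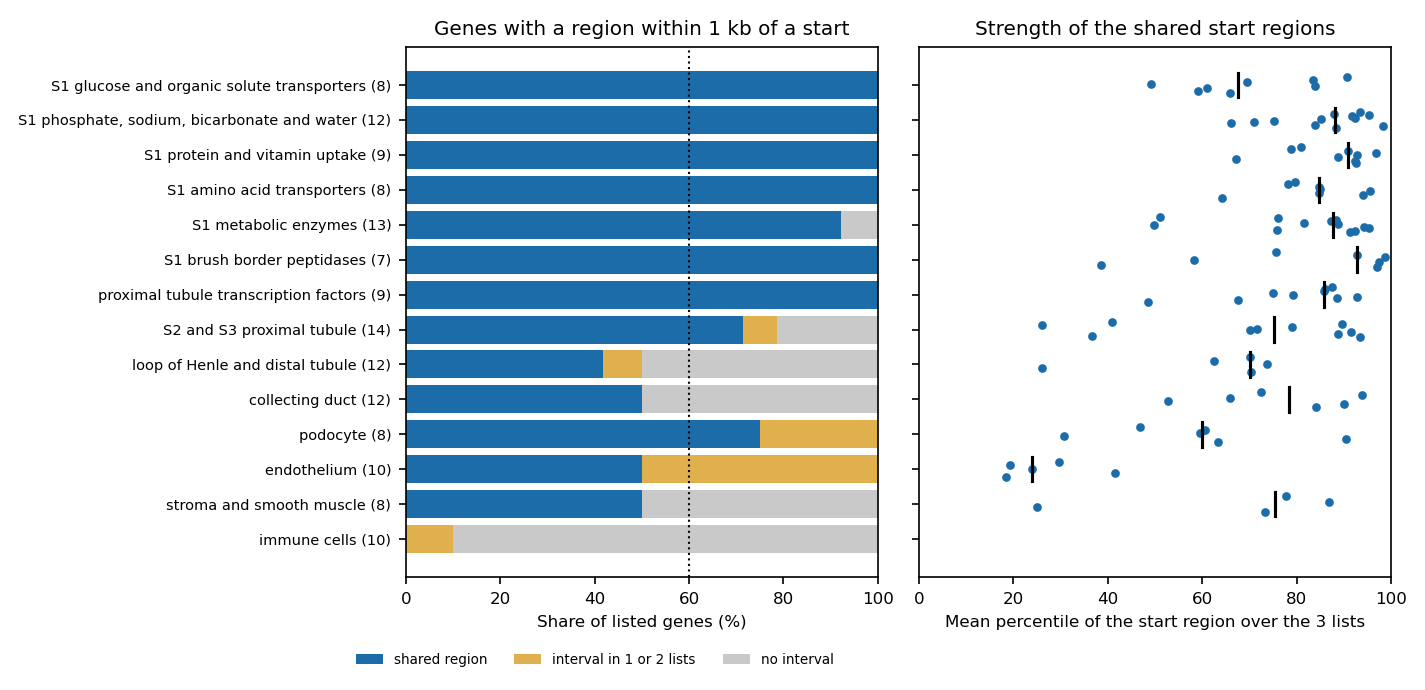
Left, share of genes in each list (x axis, %; list size in brackets) with a shared region, an interval in 1 or 2 lists or no interval within 1 kb of a start, with a dotted line at the 60.0% of all protein-coding genes. Right, mean percentile of each open start with the list median as a bar. S1 lists are almost fully open, endothelial starts are open in 5 of 10 genes at a median of 23.95, and no immune gene is open.

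The strongest distal regions included many that lie at starts outside the basic annotation. The region of highest rank (chr8:84639093-84639780) ranked 13, 14 and 29 in the 3 lists, lay in an exon of the calcium channel gene Cacna1a with Ier2 as the nearest coding start 23306 bp away, and was 81.1% GC. The second (chr11:62756566-62757406, ranks 97, 108 and 118) lay in an intron of Zfp286. The third (chr13:73692214-73693042, ranks 68, 207 and 98) lay in an intron of Slc6a19, 39 bp from the internal start whose sequence is printed above. This internal region stood above the basic start of Slc6a19 in every library, at 99.9, 99.7 and 99.9 against 97.0, 97.4 and 92.0. Next came the Arhgap42 intron (nearest coding gene Gm16485; ranks 208, 109 and 267) and an intron of Uggt2 (nearest coding gene Dnajc3; ranks 77, 289 and 225).

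Others of the 15 strongest were nearest to Elovl5 (a fatty acid elongase), Sipa1l3, Maml2 (a Notch coactivator), the cytokine gene Il33, Klrb1c, Myl3, Spaca6, Zfp869 and Pde4dip. In all, 9 of the 15 had a start within 1 kb in the full GENCODE set or in RefSeq, as did 159 of the 1000 strongest distal regions (15.9%) and 3555 of all 45489 (7.82%). The 6 without were at Gm16485, Elovl5, Maml2, Klrb1c, Myl3 and Pde4dip, and the Pde4dip window held the HNF1 string. Counting every start of both sets, 38796 distal regions (85.3%) lay more than 2.5 kb from any.

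Distal regions were spread over many genes, and 42 genes had 30 or more. The nearest coding gene had a median of 1 distal region, 90% of genes had 6 or fewer and 45.9% had none. Pde4d, a cyclic AMP phosphodiesterase, had 59, the adhesion protein gene Tns1 56, the zinc finger gene Bnc2 52, the chromatin remodelling subunit Arid1b 47 and the kidney transcription factor Glis3 46, followed by Auts2 (42), the polarity gene Pard3 (42), Lpp (41), Zbtb20 (41) and Zfp608 (41). Several of these genes are long: Pde4d spans 1504 kb and Auts2 1106 kb, against 214 kb for Tns1 and 105 kb for Zfp608. Zfp608 was the exception at its own start, with an interval in Sham 1 only at 8.94. S1 genes had a median of 5, with 29 at Slc4a4, 23 at Dab2, 18 at Ass1 and 14 at Lrp2.

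Promoters and distal regions held different strings at their summits. A string counted when it matched on either strand within 100 bp of the summit (201 bp), and the share in windows of the same length 1 kb to either side served as the base level. Of the 45489 distal windows 6.14% held the CTCF consensus (0.167% at 1 kb), 4.16% the HNF1 string GTTAATNAT (0.596%) and 3.03% the HNF4 string CAAAGTCCA (0.296%). The AP-1 string TGANTCA was in 8.43% (5.80%) and the TEAD string ACATTCC in 4.46% (2.81%). The RXR direct repeat GGTCANAGG was in 2.37% (1.3%). Shares at and beside the summit were close for the steroid receptor string ACANNNTGT (6.48% and 6.43%) and the forkhead string TGTTTAC (2.97% and 2.82%), and the GATA string AGATAAG was in 1.65% at the summit and 2.63% beside it. The shorter HNF1 string GTTAATNNT, which contains every match of the longer one and was added after the data were seen, was in 7.98% (2.30%).

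The 13678 protein-coding promoter windows held instead the SP and KLF string GGGGCGGGG in 17.8% (1.79% at 1 kb), the NF-Y string CCAATCA in 8.05% (1.96%) and the ETS string CCGGAAGT in 5.69% (0.300%). The USF E-box GTCACGTG was in 2.68% (0.300%), the CREB and ATF string TGACGTCA in 2.46% (0.164%), the NRF1 string GCGCATGCG in 2.18% (0.0950%) and the YY1 string AAGATGGCG in 2.02% (0.124%). HNF1 and HNF4 strings were in 0.680% and 0.651% of these windows. A match is a description of the letters and not evidence of binding. Median GC was 65.2% in promoter and 49.8% in distal windows.

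Shares differed between the strongest and weakest regions for some strings. In the 1000 strongest promoters 16.8% held NF-Y, against 2.60% in the 1000 weakest. In the 1000 strongest distal regions 4.8% held CTCF, against 0.400% in the weakest, and 4.30% held HNF1, against 2.80%. CTCF did not move evenly with strength, since 6.14% of all distal regions held it. HNF1 was in 4.16% of all distal regions, and its share in the 10000 strongest, given below, was higher than in the 1000 strongest. For HNF4 the 1000 strongest and weakest held 14 and 27 windows, while the 10000 strongest held 3.36% against 3.03% of all. AP-1 was in 7.1% of the 1000 strongest, 8.43% of all and 10.5% of the 1000 weakest. Matches clustered at the summit itself: CTCF reached 23.2 matches per 1000 distal regions in the 20 bp next to the summit and 0.132 at 370 bp, and HNF1 reached 7.23 and 0.660.

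**Figure D5:**
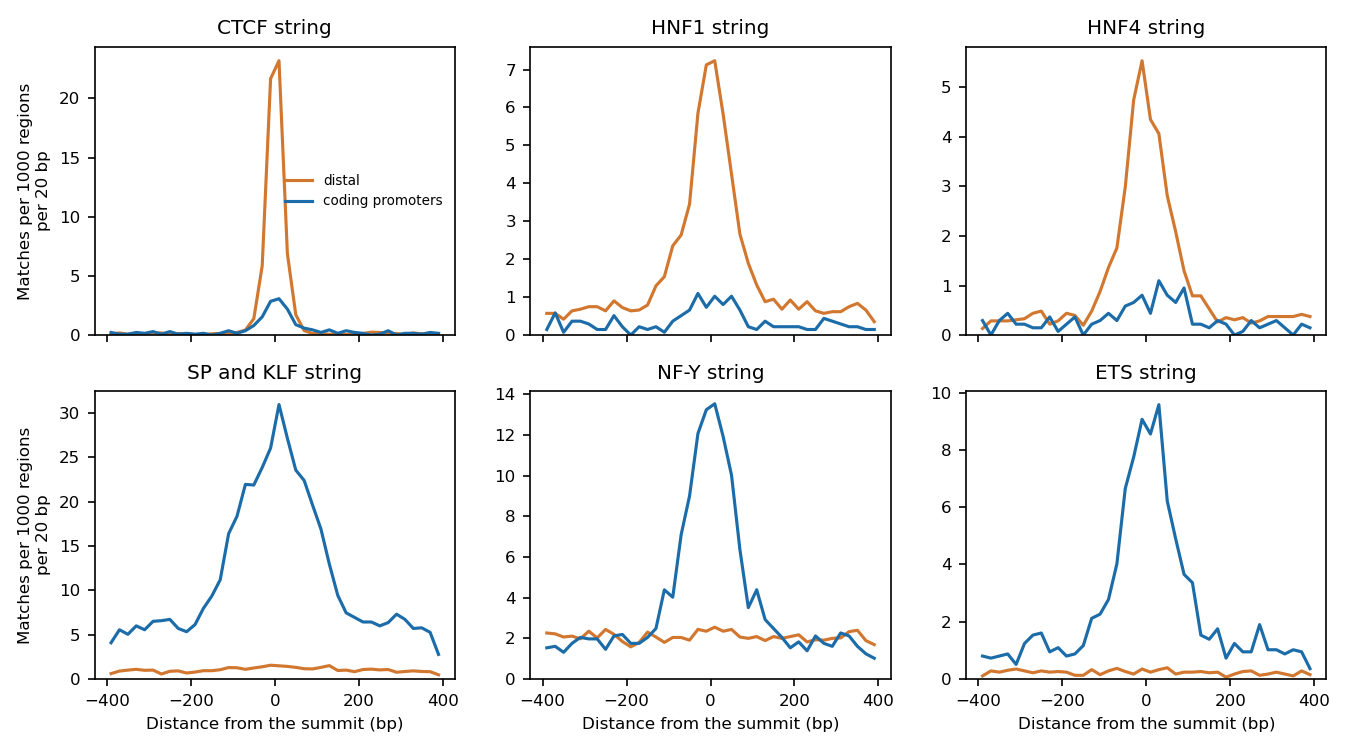
Matches per 1000 regions per 20 bp (y axis) against distance from the summit in bp (x axis) for 6 consensus strings in 45489 distal and 13678 coding promoter regions. CTCF, HNF1 and HNF4 peak at distal summits, and SP and KLF, ETS and NF-Y at promoter summits.

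At S1 promoters, HNF1 or HNF4 strings were found in 4 of 56 summit windows (7.14%), against 138 of 13112 open coding promoters (1.05%). Among CpG-poor starts, the share was 4 of 39 for S1 genes (10.3%) and 97 of 3399 for all (2.85%). Near S1 genes, 12 of 348 distal windows held HNF1 (3.45%) and 11 held HNF4 (3.16%), against 4.17% and 3.03% of those nearest to other genes. No S1 promoter window held the ETS string, which 6.56% of all open promoters held, and 3 held the SP and KLF string (5.36%, against 19.1%). Among CpG-poor starts the ETS shares were 0 of 39 and 3.62%, and the SP and KLF shares 2.56% and 10.4%.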

How the data were processed

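ATAC-seq libraries were trimmed with cutadapt 3.4, aligned with Bowtie, handled with SAMtools and Picard and called with MACS2 2.2.7.1 on mm10, per the submitters' processing notes; their settings, and any filter applied to the lists, are not given in the sources used here. The authors deposited a separate narrowPeak list per library, with a fold enrichment (a linear ratio), a −log10 q (the deposited −log10 value used for ranking) and a summit position for each peak. Only the 3 Sham lists were used. Several summits can share an interval, so each distinct interval on chromosomes 1 to 19, X and Y kept its best summit by −log10 q. Intervals from the 3 lists were joined where they shared 1 bp or more, and a region's summit was the median of its best summits. Annotation was GENCODE M21, and bases came from RefSeq GRCm38.p6. Python 3.11.15, pandas 2.3.3, numpy 2.4.6, pysam 0.24.0 and matplotlib 3.10.9 were used, and merging and string search were tested on simulated data. With 1 group there was no comparison to test, so no p-value is given, and values are described with the SD over libraries. Named genes followed a rule: the 4 markers, the 15 strongest promoter and 15 strongest distal regions, the 10 genes with most distal regions, the highest and lowest open gene of each list, every closed S1 gene, and every open gene of other lists with 5 or fewer; some of these are not reported here. Members and lists were chosen with earlier results of these data known, and genes named outside the rule were chosen after their values were seen. Alternatives were lists of equal length, a −log10 q of at least 5, fold ranking, a 50% overlap, a 2.5 kb promoter window, each library left out, 50 bp around summits and the 10000 strongest regions of a class.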

Additional observations from a re-analysis of the deposited data

How the results depend on the processing

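No paired analysis was possible because only the Sham group was used and no result came from a test. With 3 lists the spread is known roughly, and depth is unknown, so a missing interval may be a site below the limit of a list. The number of shared regions stayed within 1.5 times of 66371 under every alternative listed above, from 56214 (−log10 q of at least 5) to 82713 (without Sham 2), and 54 to 56 S1 genes were open with 1 closed. A −log10 q of at least 5 gave a promoter share of 26.5%, an intronic share of 42.5% and 57.9% of coding genes open, and a 50% overlap gave 56.7% open. A promoter window of 2.5 kb gave 31.5% promoter, 40.1% intron, 24.8% intergenic and 63.0% of genes open. Leaving out each library in turn gave promoter shares of 21.6% to 24.1%, intronic shares of 44.4% to 45.9%, intergenic shares of 26.8% to 27.9% and 60.2% to 62.3% of genes open, in each case farthest without Sham 2. String shares moved with the window by construction: with 50 bp on either side they were 2.85% (HNF1), 2.08% (HNF4) and 5.85% (CTCF) in distal regions and 10.5% (SP and KLF), 3.66% (ETS) and 5.46% (NF-Y) in promoters. In the 10000 strongest regions of each class they were 5.09% (HNF1), 3.36% (HNF4), 20.5% (SP and KLF), 7.0% (ETS) and 9.91% (NF-Y). Over all distal regions the shorter HNF1 string gave 7.98%. Of 101 named promoters, 84 moved by more than their SD with fold ranking (median change −20.7 percentile points, from −50.1 to 15.8) and 34 with lists of equal length (median −3.30). The cause was not tested.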

Other observations

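The HNF1 example near Mup5 and the Arhgap42 example, both mostly repeat-masked, share a run of 14 bases on the same strand, AGAGCTTGCCTGCA. It was looked for after these windows had been printed. On either strand the run was found in 68 of the 45489 distal windows (0.149%), of which 98.5% were mostly masked, and in 9884 places on chromosomes 1 to 19, X and Y. Of these 68 regions 26 were among the 1000 strongest distal regions. Their median percentile was 87.1 (from 13.7 to 99.8), against 56.3 for all distal regions, their median distance from a coding start was 79.8 kb, and 4 held the HNF1 string. Both source windows were chosen for their high percentiles and are counted among the 68. These medians therefore describe the regions and do not test whether the run goes with strength. Another search, on the strongest mostly masked distal windows, gave a different run of 11 bases, CAGGAGGTGGA. That run was in 89 distal windows, 64.0% of them mostly masked, with a median percentile of 80.8 and 18 among the 1000 strongest. Reads in repeats can be placed at several positions, and the part of this in the values was not tested.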
